A study of Mus musculus with 5 samples.

Results

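The genes described here are 8 genes that mark lymphatic endothelium or the endothelium on the fibrosa side of heart valves: Prox1, Foxc1, Foxc2, Flt4, Lyve1, Pdpn, Ccl21a and Reln. They were taken by symbol from a table of 24062 genes counted in mouse mitral valve leaflets, and all 8 had a row. Of these, 7 passed the filter on low counts, and Ccl21a had no read in any library. The study asked how loss of Ift88, a gene of the transport machinery that builds cilia, changes the leaflet transcriptome. It holds 5 libraries of leaflet RNA, 2 titled wild type (WT) and 3 titled knockout (KO). All carry the NfatC1Cre driver, a Cre active in the endocardial lineage, so that the control animals express Cre as well, and cells outside that lineage may keep an intact gene. The genotype fields assign Ift88f/f to WT and Ift88+/+ to KO, the opposite of what the titles imply. Groups follow the titles. The sources used here do not give ages, sexes, times or the number of animals per library, so p-values measure the spread between these libraries, which may be technical.

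Lymphatic endothelial cells are specified by the homeobox factor Prox1, which keeps up the expression of Flt4, the receptor for the growth factor Vegfc. The forkhead factors Foxc1 and Foxc2 act in the formation of lymphatic valves and in vascular development, and Prox1 and Foxc2 are also made in the endothelium on the fibrosa side of heart valves, a layer rich in collagen. Lyve1 is a hyaluronan receptor, Pdpn (podoplanin) a mucin-type membrane protein that binds the platelet receptor Clec1b, Ccl21a a chemokine that draws dendritic cells into lymphatics, and Reln the secreted glycoprotein reelin. None of these genes is restricted to lymphatic cells. Prox1 is also made in cardiomyocytes, Lyve1 in some resident macrophages, and Pdpn in mesothelium and fibroblasts.

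Levels are read counts relative to library size (CPM), further scaled by the trimmed mean of M values (TMM). Library totals lay between 23361414 and 53789026 counts. Ift88 was measured at 7.54 and 19.8 CPM in WT replicates 1 and 2 and at 3.0, 3.92 and 0.409 in KO replicates 1, 2 and 3. Its direction followed the titles, with every KO library below both WT libraries, as for 11.1% of all genes tested. The difference did not pass correction (log2 fold change -2.48, SE 1.125, adjusted p = 0.81, edgeR). An antisense gene, Ift88os, overlaps Ift88 exons, and its reads cannot be told apart there, as the library kit does not mark the strand. Of all library pairs the 2 WT libraries had the lowest correlation of log2 CPM across genes, 0.728, against up to 0.872 between KO replicates 1 and 2. The WT libraries stood apart from each other in their cell type markers. The summed level of 15 pan-endothelial markers was 584 CPM in WT replicate 1, 3923 in WT replicate 2 and 2251 to 2940 in KO. That of 11 cardiomyocyte markers was 50530 CPM in WT replicate 1, 103 in WT replicate 2 and 26780 to 37830 in KO. Endocardial and valve endothelial markers, at 658 to 2606 CPM in sum, were detected in every library labelled as leaflet, and cardiomyocyte markers were nearly absent from WT replicate 2 and abundant in the other 4 libraries. In bulk RNA, fewer cells of a type and less RNA per cell cannot be told apart.

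**Figure D1:**
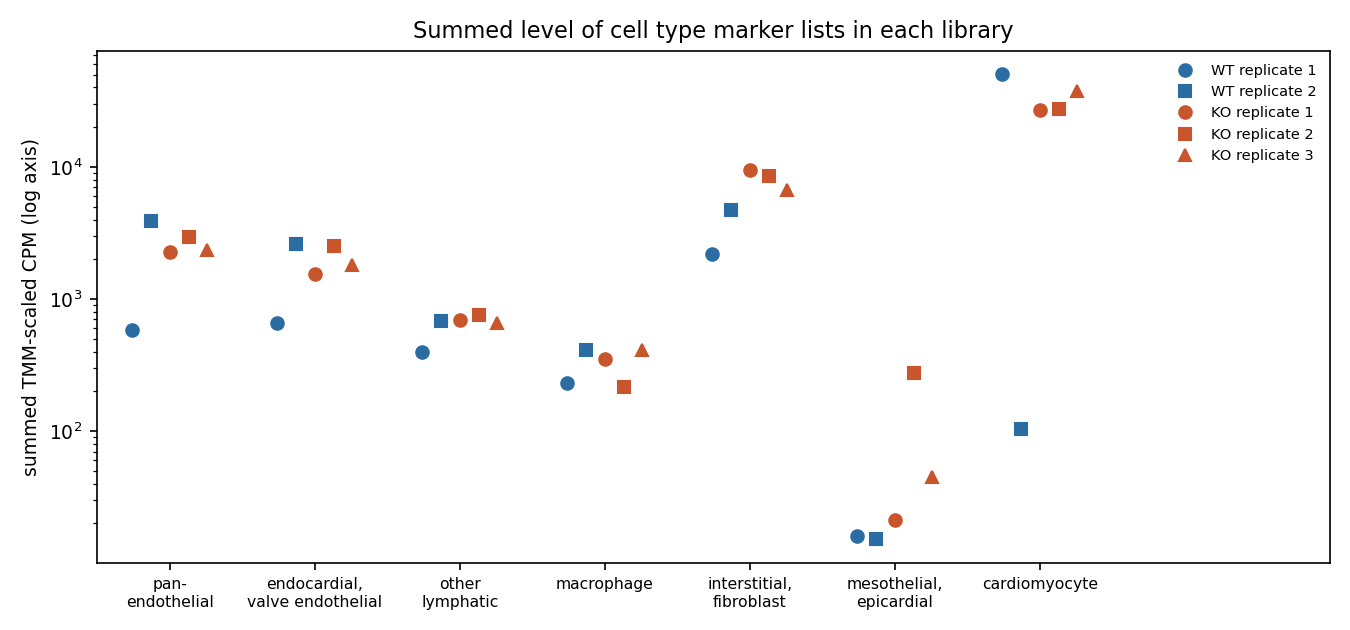
Summed TMM-scaled CPM of 7 cell type marker lists (log axis) in the 2 WT and 3 KO libraries, each point a library, with no error bars. WT replicate 1 lies lowest for the pan-endothelial list at 584 CPM, WT replicate 2 lies lowest for cardiomyocyte markers at 103, and KO replicate 2 lies highest for mesothelial and epicardial markers at 277.

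No member was called between KO and WT at an adjusted p under 0.05 (edgeR quasi-likelihood test with Benjamini-Hochberg adjustment over 14244 genes), where 0% of all genes were called. Adjusted p-values of the 7 tested members lay between 0.81 for Pdpn and 0.991 for Flt4. At an unadjusted p under 0.05 there was 1 member, Pdpn, higher in KO, against 5.84% of all genes in either direction and 4.57% in that one. Of the 7 tested members 6 had a positive log2 fold change, against 49.4% of all genes, and Reln had a negative one. All 3 KO libraries lay above both WT libraries for 3 members, Foxc1, Lyve1 and Pdpn, against 13.5% of all genes tested, and below both for 0, against 11.1%. The median log2 fold change of the 7 was 0.56, against -0.01 over all genes. Leaving out WT replicate 1 gave a median of 0.19, and leaving out WT replicate 2 gave 2.96. In 6 of the 7 the lowest level was that of WT replicate 1, which was the lowest library for 26.2% of all genes.

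**Figure D2:**
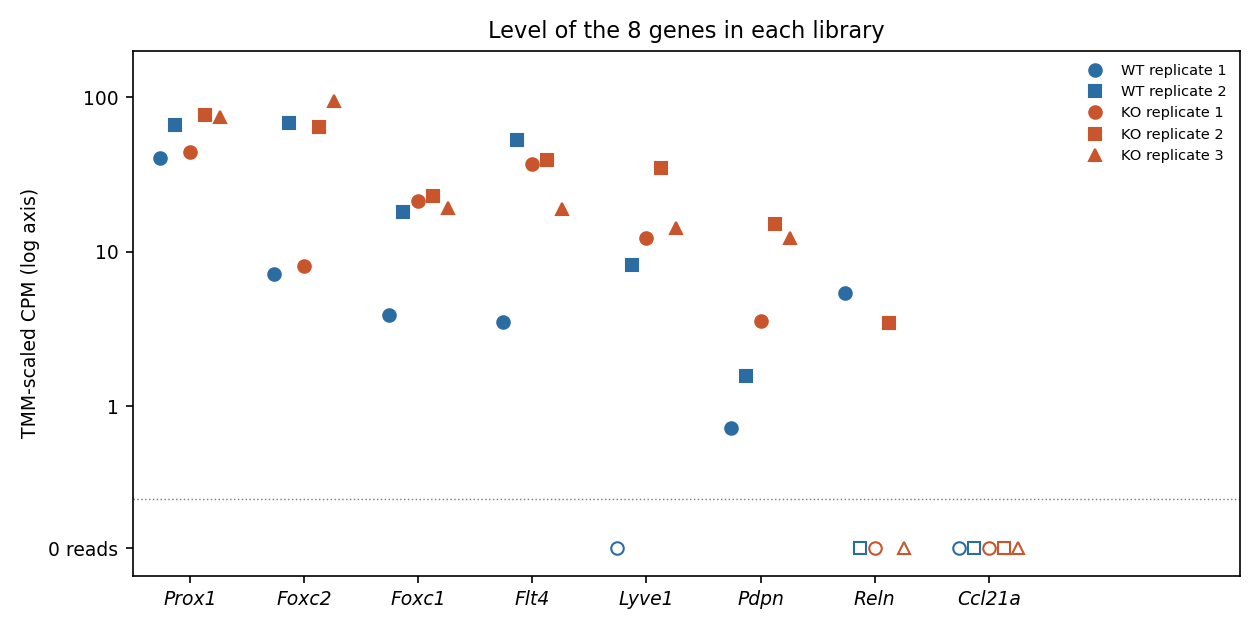
Levels of the 8 genes (TMM-scaled CPM, log axis), with 1 point per library and open symbols on the bottom line for libraries with 0 reads. Points are single libraries without error bars. Pdpn lies between 3.54 and 15.2 in KO and at 0.723 and 1.56 in WT, Reln has reads in WT replicate 1 and KO replicate 2 alone, and Ccl21a has none.

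Prox1, the homeobox factor that specifies lymphatic identity, was the steadiest of the tested members. It lies on the minus strand of chromosome 1 (GRCm38, 190118035 to 190170714), and its longest transcript has 5 exons. Its level was 40.2 and 66.5 CPM in WT replicates 1 and 2 and 44.1, 77.2 and 74.8 in KO replicates 1, 2 and 3. The highest library was 1.92 times the lowest, and the groups overlapped. The mean was 53.4 ± 18.6 (SD, n = 2) in WT and 65.4 ± 18.5 (SD, n = 3) in KO, and the log2 fold change of 0.29 (SE 0.44) was smaller than the spread between replicates (adjusted p = 0.957, edgeR). It was -0.06 without WT replicate 1 and -0.69 (adjusted p = 0.987) after a correction for transcript length, in which the length trend of log2 CPM was taken out of every library. Cardiomyocyte markers, whose cells can make Prox1, ranged over the libraries from 103 to 50530 CPM, and WT replicate 2, with the lowest of these, had the third highest Prox1 level. The part of cardiomyocytes in the Prox1 reads was not tested. The library kit does not mark the strand, and an antisense gene, Prox1os, overlaps Prox1 exons. It shares 1.07% of the 50-base windows of the Prox1 transcript, and its reads cannot be told apart where the exons overlap.

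Foxc2, a forkhead factor of lymphatic valves, fell into low and high libraries that did not follow the groups. This gene with a single exon lies on the plus strand of chromosome 8 (121116171 to 121118895). It stood at 7.15 CPM in WT replicate 1 and 68.1 in WT replicate 2, and at 8.06, 64.0 and 95.2 in KO replicates 1, 2 and 3. WT replicate 1 and KO replicate 1 were low, and each of the other 3 libraries was above 60. The log2 fold change was 0.56 (SE 1.21, adjusted p = 0.977, edgeR). It was -0.33 without WT replicate 1, -0.06 without KO replicate 3 and 2.96 without WT replicate 2. The low libraries differed in their endothelial RNA, with summed pan-endothelial markers of 584 CPM in WT replicate 1 and 2251 in KO replicate 1. The titles of both share a code with that of KO replicate 2, in which Foxc2 was high. The sources used here do not say what the code stands for.

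Foxc1, the paralog of Foxc2, did not share this pattern. It also has a single exon, on the plus strand of chromosome 13 (31806633 to 31812476). Its level was 3.92 and 18.1 CPM in WT against 21.2, 23.1 and 19.3 in KO. The 3 KO libraries lay close together and above both WT libraries, with a mean of 21.2 ± 1.92 (SD, n = 3). WT replicate 2 was just below them, and the distance between the groups came from WT replicate 1. The log2 fold change was 0.94 (SE 0.75, adjusted p = 0.892, edgeR), and 0.19 without WT replicate 1 against 2.43 without WT replicate 2. The length correction took it to 0.345. Sequence shared by the paralogs was short. Of the 50-base windows of the Foxc1 transcript 0.07% also occur in Foxc2, and of 100-base windows 0%.

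Flt4, which encodes VEGF receptor 3, varied most between the WT libraries among the members with reads in both. It lies on the plus strand of chromosome 11 (49609263 to 49652739), with 30 exons. It was measured at 3.5 CPM in WT replicate 1 and 52.9 in WT replicate 2, a ratio of 15.1. The KO libraries fell between them, at 37.2, 39.5 and 18.8 CPM. The log2 fold change was 0.17 (SE 1.03, adjusted p = 0.991, edgeR), and the length correction took it to -0.48. Leaving out WT replicate 1 gave -0.76, and leaving out WT replicate 2 gave 3.18. A level in WT replicate 2 at 5 or more times that of WT replicate 1 was seen for 13.1% of the tested genes, and Foxc2 (9.52 times) and Lyve1 (no read in WT replicate 1) were among them as well.

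Lyve1, the hyaluronan receptor, had no read in WT replicate 1, which allows up to 0.114 CPM. The gene lies on the minus strand of chromosome 7 (110850607 to 110863239). It stood at 8.23 CPM in WT replicate 2 and at 12.3, 34.6 and 14.3 in KO. The KO libraries were above both WT libraries, and KO replicate 2 was the highest of the 5. The log2 fold change was 2.30 (SE 1.88, adjusted p = 0.894, edgeR), and 1.27 without WT replicate 1. Against WT replicate 1 alone, the KO level was at least 196-fold higher by counts, with a floor of 3 counts in that library. The pattern of a missing read in WT replicate 1 with reads in all 4 others was taken from Lyve1 itself, so its share is a description and no test. It occurred in 1.23% of the 2360 genes whose mean normalized reads lay within 1.5 times of those of Lyve1. The 14 macrophage markers in the table summed to 230 and 410 CPM in WT and to 351, 215 and 408 in KO. KO replicate 2, highest for Lyve1, was lowest for this sum, most of which came from C1qa, C1qb, C1qc and Lyz2. The median log2 fold change of the 12 that were tested was 0.89. In KO replicate 2 Mertk (14.1 CPM), Cx3cr1 (12.9 CPM), Folr2 (3.23 CPM) and Mrc1 were above both WT libraries. Fcgr1 (0.613 CPM), C1qa (10.5 CPM) and Lyz2 (64.1 CPM) were below both, and Csf1r, Emr1, Cd68, C1qb and C1qc lay between them. Mrc1, a mannose receptor of macrophages and of lymphatic endothelium, was at 12.4 and 3.4 CPM in WT against 12.0, 27.1 and 18.6 in KO. Cd163 and Timd4, receptors of resident macrophages, had reads in 1 library each. The part of macrophages in the Lyve1 reads was not tested.

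Pdpn, which encodes podoplanin, showed the largest difference relative to its error among the 8 genes. It lies on the minus strand of chromosome 4 (143267431 to 143299564) and was measured from few reads, 19 and 90 in WT and 112, 644 and 299 in KO. These are 0.723 CPM (95% exact Poisson interval 0.435 to 1.13) and 1.56 (1.25 to 1.92) in WT. In KO replicates 1, 2 and 3 the level was 3.54 (2.91 to 4.26), 15.2 (14.0 to 16.4) and 12.2 (10.9 to 13.7). These intervals hold counting error alone, as PCR copies carried no molecular identifiers and are not independent. Every KO library was above both WT libraries, and KO replicate 1 was the closest to WT. Means were 1.14 ± 0.592 (SD, n = 2) in WT and 10.3 ± 6.06 (SD, n = 3) in KO. The log2 fold change of 3.17 (SE 1.10), an 8.99-fold difference, had an unadjusted p of 0.0274 and missed the threshold after adjustment over all genes (adjusted p = 0.81, edgeR). DESeq2 gave 3.10 with an adjusted p of 0.049 and called Pdpn as the 1 member, where it called 2.41% of genes with an adjusted p. With each library left out in turn, the log2 fold change ran from 2.68 without WT replicate 1 to 3.83 without WT replicate 2. As every KO library was above both WT libraries, these fits could hardly reverse its sign. The edgeR test did not call Pdpn in any fit without a KO library. The log2 fold change was 3.35 after the length correction.

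Markers of mesothelium, a cell type that makes podoplanin, were highest in sum in KO replicate 2, where Pdpn was highest as well. The 9 mesothelial and epicardial markers in the table summed to 16.1 and 15.1 CPM in WT and to 21.1, 277 and 45.1 in KO replicates 1, 2 and 3. Upk3b and Lrrn4, which encode membrane proteins of mesothelium, had no read in WT or in KO replicate 1. They stood at 64.7 and 19.8 CPM in KO replicate 2 and at 2.42 and 5.69 in KO replicate 3. Msln, which encodes mesothelin, had 3002 reads in KO replicate 2 and 0 in KO replicates 1 and 3. In KO replicate 3 the keratin gene Krt19 was high as well (23.4 CPM), whereas Upk1b (1.92 CPM) and the keratin gene Krt8 (1.02 CPM) were lower than in the other 4 libraries. Without KO replicate 2 the Pdpn log2 fold change was 2.78. The 12 interstitial and fibroblast markers summed to 2196 and 4735 CPM in WT and to 6709 to 9496 in KO, with every KO library above both WT libraries. The part of either cell type in the Pdpn difference was not tested.

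The promoter of Pdpn is shown because this gene had the smallest p of the 8, beside those of Foxc1 and Flt4, whose profiles over the libraries were the most alike. RefSeq sequences on GRCm38.p6, 250 bases before to 50 after a gene's start, were found for 6 of the 8 genes, with no entry for Foxc2 and Lyve1. Capitals mark matches on either strand to a forkhead motif, GTAAACA, or to the GC box GGGCGG bound by SP and KLF factors. The ETS family motif CCGGAAG had no match on either strand, and neither had the letters AGATAA of the GATA factor family. The letters TATAAA also had no match in these windows. No match overlaps another in these 3 windows. They lie at chr4:143299515-143299814 (minus strand), chr13:31806396-31806695 (plus strand) and chr11:49609429-49609728 (plus strand). The Flt4 window lies inside the GENCODE bounds given above for that gene, as its RefSeq start is downstream of the GENCODE start.
Pdpn: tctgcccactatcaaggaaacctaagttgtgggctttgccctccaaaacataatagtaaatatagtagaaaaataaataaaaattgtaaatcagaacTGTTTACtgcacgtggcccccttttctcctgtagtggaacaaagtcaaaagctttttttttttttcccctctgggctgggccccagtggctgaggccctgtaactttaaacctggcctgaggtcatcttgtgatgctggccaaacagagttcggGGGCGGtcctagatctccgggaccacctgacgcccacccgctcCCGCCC
Foxc1: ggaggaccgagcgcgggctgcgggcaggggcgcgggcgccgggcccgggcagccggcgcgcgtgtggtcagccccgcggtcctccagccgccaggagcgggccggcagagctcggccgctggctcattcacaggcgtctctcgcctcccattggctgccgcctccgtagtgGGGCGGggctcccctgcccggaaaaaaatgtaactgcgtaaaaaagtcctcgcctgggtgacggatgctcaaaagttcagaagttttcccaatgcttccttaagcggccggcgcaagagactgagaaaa
Flt4: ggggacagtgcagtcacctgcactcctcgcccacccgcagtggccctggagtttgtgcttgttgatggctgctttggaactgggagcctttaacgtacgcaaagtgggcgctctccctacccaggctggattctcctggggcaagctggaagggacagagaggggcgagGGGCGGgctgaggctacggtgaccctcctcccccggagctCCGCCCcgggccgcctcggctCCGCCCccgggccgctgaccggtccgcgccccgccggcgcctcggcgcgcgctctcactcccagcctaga
The Pdpn window holds 1 forkhead match, starting at position -153 with the first base after the 250 as 0, and 2 GC boxes. Such a forkhead match was found in 3.65% of the 32851 promoters in the table and a GC box in 35.7%. The Flt4 window holds 3 GC boxes and the Foxc1 window 1, and neither holds the forkhead letters. GC content was 48.7% for Pdpn, 67.3% for Foxc1 and 70.3% for Flt4, against a median of 52.7% over all promoters. A match describes these letters and is not evidence of binding.

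Reln, which encodes reelin, was either clearly present or without reads. It lies on the minus strand of chromosome 5 (21884454 to 22344702) and has 65 exons in its longest transcript. WT replicate 1 had 142 reads (5.4 CPM) and KO replicate 2 had 146 (3.44 CPM). WT replicate 2 and KO replicates 1 and 3 had 0, which allows up to 0.052, 0.0948 and 0.123 CPM. The libraries with reads came from both groups, and the log2 fold change of -1.23 (SE 3.25, adjusted p = 0.983, edgeR) was far smaller than its error. It turned positive without WT replicate 1, since the remaining WT library has no read, and by counts the KO level was then at least 28.5-fold higher with a floor of 3 counts. Genes with such gaps were not rare at this depth. Of 1049 genes whose mean normalized reads lay within 1.5 times of those of Reln, 9.44% had no read in 3 or more of the 5 libraries, against 2.93% of all genes tested. An antisense gene, Gm10475, overlaps Reln and shares 1.3% of its 50-base windows. The reelin receptor gene Vldlr stood at 59.8 and 0.0173 CPM in WT against 35.2, 29.2 and 143 in KO, and the adaptor gene Dab1 had reads in WT replicate 2 alone. WT replicate 2 was also the library nearly free of cardiomyocyte markers. Whether these move together for one reason was not tested.

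Ccl21a, the lymphatic chemokine gene, was not detected. It had 0 reads in all 5 libraries, which allows up to 0.052 to 0.123 CPM per library. The gene lies on the minus strand of chromosome 4 (42772860 to 42773993) among close copies. GENCODE holds 4 other genes with a coding sequence of the same 399 bases in length, Ccl21b, Gm10591, Gm13304 and Gm21541, and each differs from Ccl21a by 2 substitutions, T84A and C194T, with positions counted from the first coding base. Bases 149 to 238 are shown because they hold the second of these, in capitals. The first line is Ccl21a and the second is the sequence common to the 4 copies.
Ccl21a: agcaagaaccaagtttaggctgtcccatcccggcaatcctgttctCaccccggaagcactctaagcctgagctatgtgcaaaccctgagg
Ccl21b: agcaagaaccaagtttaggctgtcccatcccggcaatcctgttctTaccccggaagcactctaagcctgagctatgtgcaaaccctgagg
Of the 50-base windows of the Ccl21a transcript 71.6% also occur in a copy, and of the 100-base windows 50.3%. For the other 7 genes the largest share of 50-base windows was 1.3%. The sources used here do not say how reads with several matching places were counted. The 4 copies and Ccl21c also had 0 reads in all 5 libraries. With the counting of such reads unknown, this does not show absence of the transcript, and the limits above hold for counted reads alone. Ccr7, the receptor for this chemokine, had reads in WT replicate 1 alone (1.6 CPM).

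Levels of different genes can be compared only per transcript length. On that scale the median over the 5 libraries was 23.5 CPM per kilobase for Foxc2, 8.41 for Prox1, 5.94 for Flt4, 4.24 for Lyve1, 3.3 for Foxc1 and 1.95 for Pdpn, with Reln and Ccl21a at 0. Neighbours in this order down to Pdpn had overlapping ranges, and each was above the next in 3 of 5 libraries. The order of these neighbours is therefore not resolved. Of genes further apart, Foxc2 and Prox1 were each above Pdpn in 5 of 5 libraries, and Prox1 was above Foxc1 in 5 of 5 with ranges that did not overlap. Foxc2 ranged from 2.63 to 34.9 CPM per kilobase and Prox1 from 5.08 to 9.76.

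Since endothelial RNA differed between the libraries, each member was also set against the summed pan-endothelial markers of its own library. Prox1 amounted to 6.88% of that sum in WT replicate 1, 1.7% in WT replicate 2 and 1.96, 2.63 and 3.2% in KO. It was highest in the library with the least endothelial RNA. Flt4 amounted to 0.599 and 1.35% in WT and to 1.65, 1.34 and 0.806% in KO, a range narrower than that of its level. Foxc1 stood at 0.671 and 0.463% in WT and at 0.94, 0.786 and 0.826% in KO, and Lyve1 at 0 and 0.21% in WT and at 0.544, 1.18 and 0.614% in KO. For both genes every KO library was above both WT libraries on this scale. For Pdpn the groups came close, with 0.124 and 0.0398% in WT and 0.157, 0.517 and 0.524% in KO, and did not overlap. The share of all genes without overlap was not computed on this scale, so the lack of overlap is not read as a result about these members. Foxc2 in KO replicate 1 was at 0.358%, against 1.22 to 4.08% in the other 4 libraries.

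On the log2 scale with a pseudocount of 0.1 CPM, the difference in this ratio between KO and WT was 0.59 for Foxc1 and 3.61 for Lyve1, each with p = 0.1 in a two-sided exact permutation test. That is the smallest p which 2 against 3 libraries allow, so no ratio could pass a threshold of 0.05. It was 2.20 for Pdpn (exact permutation p = 0.2), 0.42 for Flt4 (exact p = 0.6) and -0.43 for Prox1 (exact p = 0.8). It was 0.01 for Foxc2 (exact p = 1) and -1.89 for Reln (exact p = 0.7). These 7 p-values are unadjusted. The Lyve1 difference depends on the pseudocount, since WT replicate 1 has no read, and was 1.95 with 1 CPM. With Pecam1 and Cdh5 as the denominator Foxc1 had 0.15 (exact permutation p = 0.8). Prox1 turned to 0.58 and Flt4 to -0.15 without WT replicate 1. Lyve1, without a read in WT replicate 1, gave 1.79 without that library.

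**Figure D3:**
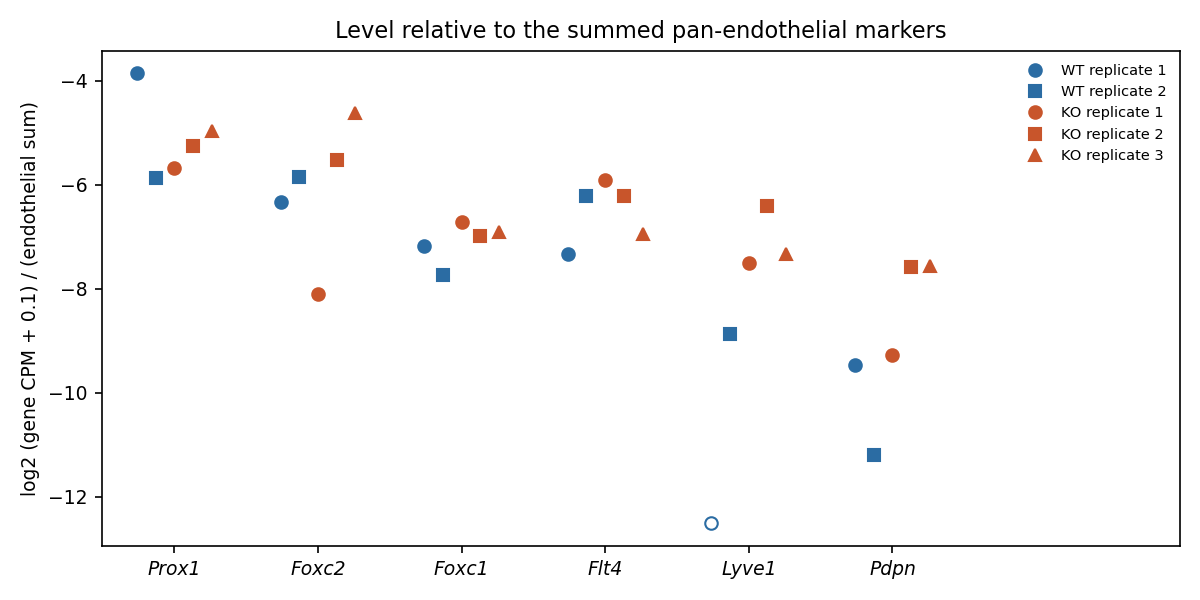
Ratio of each of 6 genes to the summed pan-endothelial markers of the same library, as log2 of (CPM + 0.1) over the sum, for 2 WT and 3 KO libraries, each point a library. The open symbol is WT replicate 1 of Lyve1, with 0 reads. Prox1 lies highest in WT replicate 1 at -3.86, and Foxc2 is lower in KO replicate 1, at -8.11, than in the other 4 libraries.

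**Figure D4:**
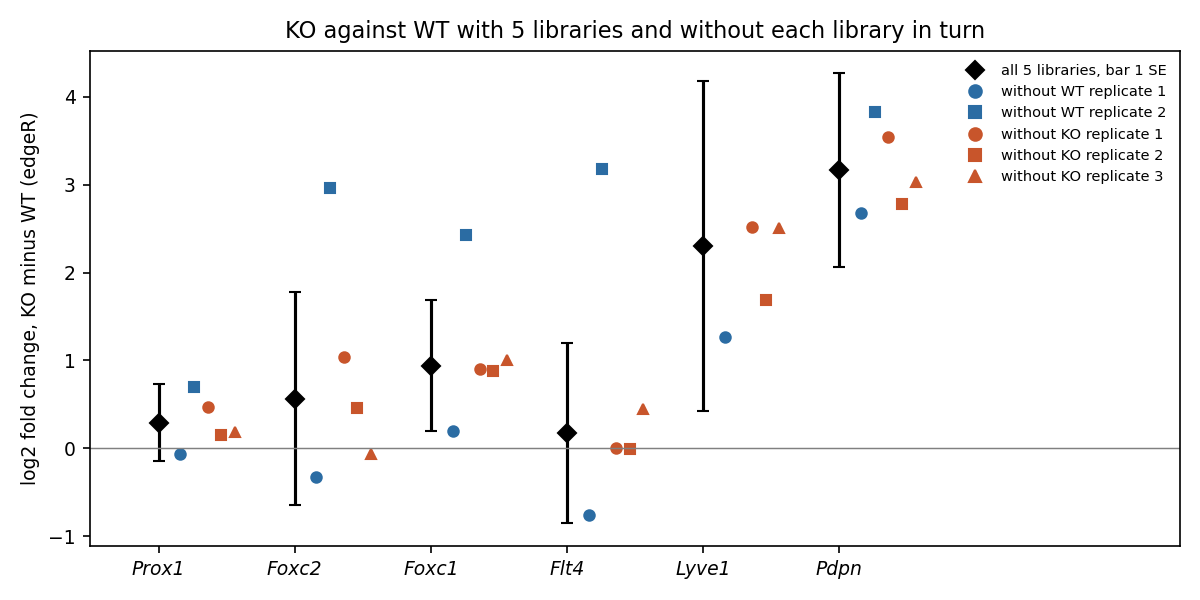
Log2 fold change of KO minus WT in edgeR for 6 genes. Diamonds with bars are the fit to 5 libraries with 1 SE, and coloured symbols are fits without the named library. Lyve1 without WT replicate 2 is not drawn, since the remaining WT library has 0 reads. The symbols for the fit without WT replicate 2 lie highest, at 2.96 for Foxc2 and 3.18 for Flt4, and those of Pdpn lie between 2.68 and 3.83.

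Members differed in how alike their profiles were. Likeness was measured as the root mean square difference of log2(CPM + 0.1), each gene centred on its own mean, over 5 libraries. The closest pair of members was Foxc1 and Flt4, at 0.621, followed by Prox1 and Foxc1 at 0.741. Foxc2 was about as far from Prox1, at 1.24, as from its paralog Foxc1, at 1.30. Reln was at 2.79 or more from every other member. Among 13741 genes whose mean was 20 or more normalized reads, those nearest to Prox1 were Oxr1 (0.0572), an oxidation resistance gene, and Gata4 (0.0845), a cardiac and endocardial transcription factor. Those nearest to Foxc1 were Ccdc80 (0.0608), which encodes a matrix protein, and Mmp14 (0.0759), a membrane-bound metalloprotease. A near profile over 5 libraries is a description and no evidence of a link between genes.

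Nearest to Flt4 were Hpgd (0.175), which encodes a prostaglandin dehydrogenase, and Rnd1 (0.185). Foxc2 had Gpr84 (0.189) and Ap3m2 (0.26), Lyve1 had Enpp1 (0.307) and St8sia2 (0.326), and Pdpn had Btbd11 (0.335) and Lamc1 (0.35), which encodes the laminin gamma 1 chain. Gpr84 had no read in WT replicate 1 or KO replicate 1, where Foxc2 had reads, and Enpp1 and St8sia2 had none in WT replicate 1. The distances of these genes therefore depend on the pseudocount of 0.1 CPM. Reln had Tmem25 (0.155) and Slitrk3 (0.165), which also have reads in WT replicate 1 and KO replicate 2 alone.

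**Figure D5:**
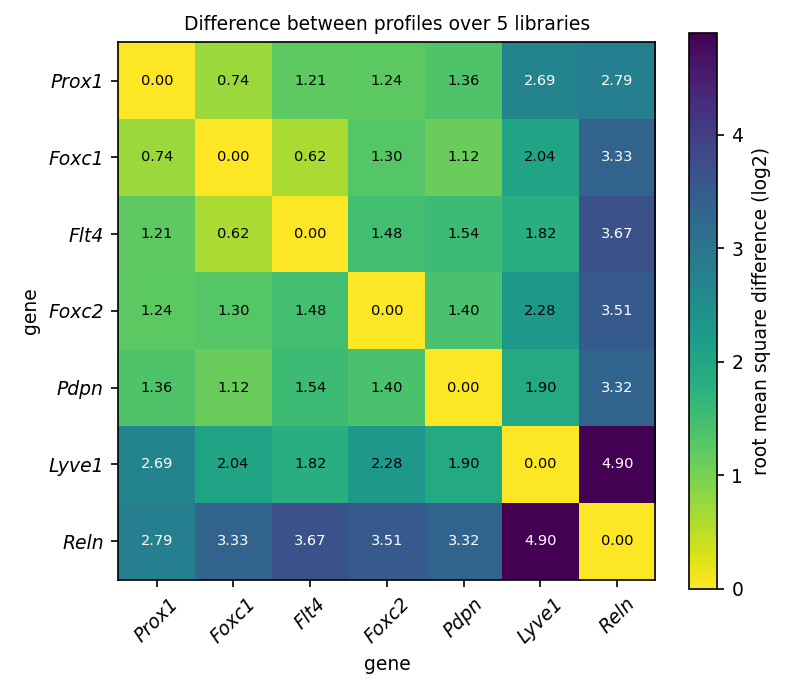
Root mean square difference (log2) between the centred profiles of each pair of the 7 tested genes over 5 libraries, with lighter cells for more alike pairs. Foxc1 and Flt4 are the closest at 0.62, and Lyve1 and Reln the farthest apart at 4.90.

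The wider pathway of Vegfc and its receptors showed no called gene. Of 25 tested genes of lymphangiogenesis 17 had a positive and 8 a negative log2 fold change, with a median of 0.44 against -0.01 over all genes. For 3 of them every KO library was above both WT libraries, and for 0 below, against 13.5% and 11.1% of all genes, so this count is near the background. Efnb2, an ephrin of arteries and lymphatic valves, stood at 12.0 and 30.4 CPM in WT against 40.0, 59.7 and 93.3 in KO (log2 fold change 1.60, SE 0.61, adjusted p = 0.81, edgeR). It was 1.05 with WT replicate 1 left out and 2.42 with WT replicate 2 left out. Svep1, a matrix protein needed for lymphatic remodelling, had 1 read in WT and 217 in KO, nearly all of them in KO replicates 2 and 3. KO replicate 1 had 1 read. The ratio of pooled reads was 185, with a 95% interval of 32.9 to 7340 that holds counting error alone. That interval leaves out the spread between libraries, with which the difference did not pass correction (log2 fold change 7.26, SE 3.06, adjusted p = 0.81, edgeR). Vegfc, the ligand of Flt4, was at 9.4 and 4.37 CPM in WT against 5.97, 12.4 and 6.02 in KO, and the groups overlapped. The median turned to -0.25 without WT replicate 1 and was 2.06 without WT replicate 2. After the length correction it was 0.045.

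Of 21 tested genes of lymphatic valves and of Foxc2 partners 17 were positive and 4 negative, with a median of 0.87, against 49.4% positive over all genes. For 8 every KO library was above both WT libraries, against 13.5% of all genes. Dchs1, an atypical cadherin, stood at 3.16 and 8.55 CPM in WT against 36.5, 28.9 and 27.3 in KO (log2 fold change 2.40, SE 0.64, adjusted p = 0.81, edgeR). It was 1.11 after the length correction. Notch1, a receptor of valve and vessel development, stood at 15.3 and 43.5 in WT against 135, 102 and 94.5 in KO (1.91, SE 0.55, adjusted p = 0.81, edgeR), and 0.75 after the length correction. For the list as a whole leaving out WT replicate 1 gave a median of 0.30, and leaving out WT replicate 2 gave 2.26. After the length correction the median of the list fell from 0.87 to 0.21.

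Among 15 tested genes of other lymphatic markers 12 were positive and 3 negative, with a median of 1.01. Tspan18, a tetraspanin, stood at 20.6 and 97.7 CPM in WT against 108, 158 and 182 in KO, and Fgl2 at 120 and 51.4 in WT against 138, 110 and 208 in KO. The log2 fold change of Tspan18 was 1.34 (SE 0.69, adjusted p = 0.816, edgeR), and that of Fgl2 was 0.83 (SE 0.50, adjusted p = 0.849). Leaving out WT replicate 1 gave 0.58 for Tspan18 and 1.53 for Fgl2, and leaving out WT replicate 2 gave 2.86 and 0.35. Mmrn1, a multimerin of lymphatic capillaries, had no read in WT replicate 1 or KO replicate 3 and was at 11.4, 3.0 and 46.2 CPM in WT replicate 2 and KO replicates 1 and 2. With Ccl21a undetected and Mmrn1 without reads in 2 libraries, a common lymphatic capillary signature could not be followed across the libraries.

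A list of ligands, receptors and hyaluronan enzymes around the members, which also holds platelet-derived growth factors and their receptors, was mixed, with 7 of 13 tested positive, 6 negative and a median of 0.04. With WT replicate 1 left out it was -0.78, and with WT replicate 2 left out 1.49. Pdgfrb, a growth factor receptor of mesenchyme, stood at 19.8 and 26.2 CPM in WT against 84.3, 65.2 and 65.4 in KO (log2 fold change 1.64, SE 0.38, adjusted p = 0.81, edgeR), and Pdgfa at 16.9 and 8.68 in WT against 15.4, 25.4 and 22.8 in KO (0.73, SE 0.57, adjusted p = 0.89). With WT replicate 1 left out Pdgfa had 1.25, with WT replicate 2 left out 0.33, and Pdgfrb had 1.08 after the length correction. Of the endothelial lists, 10 of 15 pan-endothelial genes were positive, with a median of 0.30, or -0.37 with WT replicate 1 left out and 1.71 with WT replicate 2 left out. Emcn, an endothelial sialomucin, differed by a log2 fold of 1.28 (SE 0.41), and Mmrn2, an endothelial matrix protein, by 1.38 (SE 0.54). Endocardial and valve endothelial genes were positive in 9 of 15 cases, with a median of 0.33, or -0.41 with WT replicate 1 left out and 2.43 with WT replicate 2 left out. Npr3, the natriuretic peptide clearance receptor, had 2.75 (SE 0.41) and Vwf, which encodes von Willebrand factor, 2.41 (SE 0.74). After the length correction Npr3 had 1.86 and Vwf 1.36. With WT replicate 1 left out Vwf had 1.63 and Mmrn2 0.74, and with WT replicate 2 left out they had 4.08 and 2.43. For Emcn, Mmrn2, Npr3 and Vwf the adjusted p was 0.81 in edgeR.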

How the data were processed

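Total RNA of mitral leaflets was made into libraries with the SMART-Seq v4 kit, per the labels' protocols. This kit does not mark strand. The submitters' processing notes list FastQC 0.11.5, cutadapt 1.11, HTSeq and DESeq2, with builds mm10 and GRCm38. No source used here gives the aligner or annotation. The authors' deposited table gives raw read counts per gene and library. The authors' statistics columns were not used.

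In R 4.3.3, edgeR 4.0.16 was run on the counts. After filterByExpr 14244 of 17148 genes with a read remained. Scaling was by TMM, and the quasi-likelihood test (robust, two-sided, Benjamini-Hochberg adjusted) compared KO with WT. Each SE was derived from the fold change and the F statistic. Median biological variation was 62.8%. The script was tested on simulated data. Alternatives were 2 other scalings, 2 filters, DESeq2 1.42.0, limma-voom 3.58.1, leaving out each library, the 3 libraries with a shared title code, and removal of each library's trend with transcript length or, chosen after seeing the data, GC content. Lengths and coordinates came from GENCODE M21 (GRCm38), where 23685 of 24062 symbols matched.

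The members, 12 gene lists and tests were chosen with earlier results of these data known. Some lists share genes, among them the lymphangiogenic with the pan-endothelial and the lymphatic valve with the endocardial list. Their medians are therefore not independent. Named genes were Ift88, the members, the 2 genes of each list with the smallest p, and the 2 genes nearest in profile to each member. Vegfc, Vldlr, Dab1, Ccr7, Ccl21b, Ccl21c, Mmrn1, Mrc1, Cd163, Timd4, Msln, Krt19, Krt8, Upk1b, Mertk, Cx3cr1, Csf1r, Folr2, Fcgr1, Lyz2 and C1qa to C1qc were named after their values were seen.

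Fold changes of the remaining marker lists are given here. The median log2 fold change was 0.89 for macrophage markers over 12 tested genes (Cd68 1.77, Emr1 2.73), 1.33 for interstitial and fibroblast markers over 12 (Col1a1 3.08, Col1a2 2.53), and 3.07 for mesothelial markers over 8, also with genes at 0 in WT at their bounds (Upk3b at least 797-fold, Lrrn4 at least 278-fold, floor of 3 counts over the group). Cardiomyocyte markers had 0.20 over 11 (Myl7 3.83, Myh6 2.69), Schwann cell and nerve markers 0.45 over 5 (Sox10 1.47, Prph 1.71) and adipocyte markers 0.65 over 3 (Plin4 2.47, Fabp4 -0.60). No gene of these lists was called.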

Additional observations from a re-analysis of the deposited data

How the results depend on the processing

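The count of genes called was 0 in edgeR with all libraries, 381 with DESeq2, and 0 to 245 without 1 library, with 245 without WT replicate 1. In edgeR 832 genes had an unadjusted p under 0.05, Pdpn among them. The count of members called was 0, and 1 with DESeq2 (Pdpn, log2 fold change 3.10). It was 0 in each fit without 1 library. The count of members whose groups did not overlap was 3, from 3 to 7 without 1 library and 7 in the libraries that share a title code. The value of 7 arose where WT replicate 1 was the only WT library left. That library was the lowest of all 5 for 26.2% of all genes. The share of all genes without overlap was not computed for these fits, so 7 is not read as a result about the members. The median of the members was 0.19 to 2.96 without 1 library and 2.50 with the shared title code. Where a WT library was left out, or the title code was used, 1 WT library remained, and it is assumed to vary like the KO libraries. No paired analysis was possible because the groups share fewer than 2 title numbers. The title code occurs in both groups, but a block on it compares only the 3 libraries that share it, and they were fitted alone. Without 1 library each, log2 fold changes ran from -0.061 to 0.70 for Prox1, from -0.33 to 2.96 for Foxc2, from -0.76 to 3.18 for Flt4, from -2.23 to 8.46 for Reln and from 1.27 to 12.3 for Lyve1. The upper values of Reln and Lyve1 are fitted against a WT library at 0 reads and are no bounds. With the length trend removed Prox1 had -0.69 and Flt4 -0.48. Foxc1, Lyve1 and Pdpn kept a positive log2 fold change under every alternative run. For these members every KO library was above both WT libraries, so leaving out a library could hardly reverse the sign. Foxc1 had 0.19 without WT replicate 1.

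Relative to the endothelial sum, differences without 1 library ran from -1.44 to 0.58 for Prox1, from -0.73 to 1.02 for Foxc2, from -0.15 to 0.98 for Flt4, from -6.16 to 2.37 for Reln, from 0.31 to 0.87 for Foxc1, from 1.79 to 5.43 for Lyve1 and from 1.33 to 3.06 for Pdpn. With Pecam1 and Cdh5 as the denominator Foxc2 had -0.43 and Flt4 -0.024, and with a pseudocount of 1 CPM Foxc2 had -0.025, Foxc1 0.47, Lyve1 1.95 and Pdpn 1.52. List medians without 1 library ran from -0.25 to 2.06 (lymphangiogenic), 0.30 to 2.26 (lymphatic valve), -0.78 to 1.49 (partners), -0.37 to 1.71 (pan-endothelial), -0.41 to 2.43 (endocardial), 0.93 to 1.69 (interstitial), 0.42 to 4.86 (mesothelial), -0.80 to 8.73 (cardiomyocyte), -0.99 to 1.08 (Schwann cell) and 0.13 to 2.41 (adipocyte). In the libraries with a shared title code the first 7 were 2.05, 2.47, 1.84, 1.82, 2.51, 1.69 and 5.42. The median of other lymphatic markers was 0.66 with the length trend removed, and limma-voom gave 4.21 for cardiomyocyte and -0.77 for Schwann cell markers. The cause of these shifts was not tested. Of 385 values under alternatives, 337 were labelled as unchanged. For fold changes and ratios this required the same direction and side of the threshold. For medians it required a shift smaller than the spread between replicates, and for counts a small factor. Medians that turned sign within that spread counted as unchanged, as the pan-endothelial one did without WT replicate 1. The count of 337 is therefore a weak measure of stability. The overlap of groups was counted on 1 scale per filter and has no value under relative log expression scaling, DESeq2, limma-voom or the length and GC corrections. Reln was not tested at 1 CPM in 3 libraries or without KO replicate 2. The number of libraries, 2 in WT, limits the precision of each fold change, and depth sets the limits given for libraries at 0 reads.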

Other observations

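In the endothelial lists, 5 of 15 pan-endothelial and 6 of 15 endocardial and valve genes had a negative log2 fold change, opposite to most members. The 2 with the smallest p among these were Sox17 and Hey2. Sox17, a transcription factor of arterial endothelium, stood at 15.4 and 19.7 CPM in WT against 4.77, 9.55 and 5.36 in KO, with every KO library below both WT libraries, as for 11.1% of all genes (log2 fold change -1.42, unadjusted p = 0.069, edgeR). Hey2, a Notch target of arterial endothelium and myocardium, stood at 121 and 103 in WT against 67.9, 22.9 and 63.8 in KO (-1.12, unadjusted p = 0.0731, edgeR). Neither passed correction, and both were singled out after their values were seen.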
